A study of Homo sapiens with 4 samples.

Results

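The miR-30 family comprised 5 mature miRNAs read from the 5p arm of their hairpins, namely hsa-miR-30a-5p, hsa-miR-30b-5p, hsa-miR-30c-5p, hsa-miR-30d-5p and hsa-miR-30e-5p. They were taken by name from the miRNA-sequencing table, made up 5 of its 843 distinct entries, and all 5 were listed in all 4 libraries. The libraries were made from RNA pull-down material of 2 established lines of human gastric cancer, HGC27 and AGS. In both the FN1 3′-UTR, the untranslated end of the fibronectin mRNA, was stably overexpressed from a lentivirus. This overexpression was shared by every group, including those pulled down with the negative probe, and libraries from untransduced cells were not analysed here. The pull-down of each line used either the positive or the negative in vitro transcribed probe for that region, which gave 4 groups of 1 library each: HGC27 negative, HGC27 positive, AGS negative and AGS positive. The methods describe an antisense transcript on the beads without saying whether it is the positive or the negative probe, so no ratio below is read as binding to the FN1 3′-UTR.

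A miRNA guides Argonaute proteins to messages that pair with its seed, the nucleotides 2 to 8 from its 5′ end, and such messages are repressed or degraded. One precursor hairpin can give a mature miRNA from each arm, named 5p and 3p, and the arms have different seeds and therefore different targets. The miR-30 family is widely expressed in epithelial tissues and is known for repressing drivers of the epithelial to mesenchymal transition such as SNAI1 and for restraining autophagy through BECN1.

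The members shared their first 11 bases, seed included, and differed only towards the 3′ end. The sequences of miR-30a-5p, miR-30c-5p and miR-30e-5p are shown because they carry the seed that defines the family and the bases that set the members apart, and those of miR-30a-3p and miR-30e-3p because these arms behaved differently from the 5p arms in the pull-down. All are given 5′ to 3′ from RefSeq (GRCh38.p14), with the seed in capitals. RefSeq sequences were matched for 3 of the 5 members, and miR-30b-5p and miR-30d-5p are named only.
miR-30a-5p: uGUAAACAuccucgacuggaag
miR-30c-5p: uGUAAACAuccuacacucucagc
miR-30e-5p: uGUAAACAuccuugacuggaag
miR-30a-3p: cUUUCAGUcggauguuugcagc
miR-30e-3p: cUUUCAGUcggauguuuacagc

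Counted from 1 at the 5′ end, miR-30a-5p and miR-30e-5p differed by the single substitution C13U, and miR-30a-3p and miR-30e-3p by G18A. In the sequences of the deposited table, miR-30a-5p and miR-30d-5p also differed at 1 of 22 bases, and miR-30d-5p and miR-30e-5p at 2. The members miR-30b-5p and miR-30c-5p differed from each other at 4 bases, whereas the remaining pairs differed at 5 to 8. No other entry of the table carried the seed of the 5 members (0 entries).

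Mature miR-30e-5p is encoded at chr1:40754371-40754392 on the plus strand, and 1 copy of miR-30c-5p lies downstream at chr1:40757300-40757322. Both hairpins, MIR30E and MIR30C1, sit in an intron of the protein-coding gene NFYC with 2837 bases between them. The other copy of miR-30c-5p is at chr6:71377003-71377025 and miR-30a-5p is at chr6:71403595-71403616, both on the minus strand. Their hairpins, MIR30C2 and MIR30A, are 26519 bases apart in introns of the long non-coding RNA genes LINC00472 and AL136164.2. The identical miR-30c-5p copies cannot be told apart by counting mature sequences.

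The FN1 3′-UTR of the annotated transcript used here was 1101 bases long (chr2:215360454-215361554, minus strand, GRCh38). The complement of the 5p seed, TGTTTAC, had 0 matches in it, as did the seed letters themselves, GTAAACA. Among 9591 3′-UTR windows of the same length, 11.4% and 7.48% held these letters, respectively. The shorter match GTTTAC, which is contained in TGTTTAC, occurred 1 time, at position 947 of the 3′-UTR, and was held by 21.2% of the windows. It is printed here with its flanks (chr2:215360592-215360619, minus strand), the match in capitals.
FN1 3′-UTR, GTTTAC: taaaattgctaGTTTACcgttcagaagt

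The complement of the seed shared by miR-30a-3p and miR-30e-3p, ACTGAAA, also had 0 matches (14.5% of windows). The letters of this seed as they stand in the miRNA, TTTCAGT, occurred at position 808 and in 17.1% of windows. Other 3p seeds were not searched. A match is a description of the letters in this window and was not tested as a site.

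The table held 1296853 to 1452832 miRNA counts in HGC27 and 1527390 to 2955078 in AGS, and listed 342 to 609 miRNAs per library, with a lowest listed count of 2. One miRNA took a large part of every library: miR-148a-3p made up 50.6% and 35.0% of the HGC27 negative and positive counts, and miR-372-3p made up 80.8% and 37.5% of the AGS negative and positive counts. The 5 epithelial markers (miR-200a-3p, miR-200b-3p, miR-200c-3p, miR-141-3p and miR-429) summed to 0.130% and 0.0762% of the HGC27 counts and to 2.02% and 0.210% of the AGS counts, in the order negative and positive. Of these, 4 or 5 were listed in each library. The 5 fibroblast and mesenchymal markers were miR-199a-5p, miR-199a-3p, miR-214-3p, miR-143-3p and miR-145-5p. They summed to 0.705% and 0.770% in HGC27 and to 0.00274% and 0.0109% in AGS, with 3 to 5 listed. The near-equal HGC27 sums hold members that moved in opposite directions. From negative to positive, miR-199a-3p had 7692 and 58 counts and miR-214-3p had 71 and 19. The others were higher with the positive probe: miR-143-3p had 1999 and 9123, miR-199a-5p 472 and 787, and miR-145-5p 4 and 5. Of 5 blood markers, 1 was in the table, with 2 to 28 counts, and liver miR-122-5p had 6 to 48 counts. Of 2 muscle markers, 1 was in the table. It had 340 and 105 counts in HGC27 and 56 and 64 in AGS, in the order negative and positive. In bulk material of this kind, fewer cells with a miRNA and less of it per cell cannot be told apart.

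Together the 5 members had 2085 counts in HGC27 negative, 962 in HGC27 positive, 1159 in AGS negative and 189 in AGS positive. As shares of the table these were 0.144% (95% CI 0.137 to 0.150), 0.0742% (0.0696 to 0.0790), 0.0392% (0.0370 to 0.0415) and 0.0124% (0.0107 to 0.0143). The intervals are Wilson intervals for shares and exact intervals for folds. They cover counting error only, since each group had 1 library and the spread between pull-downs is unknown. The family was thus a minor part of every library, and it was smaller with the positive probe in both lines.

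The level of each member is given below in normalized tags, the authors' score of tags per 1000000 as whole numbers, with the count behind it. The most abundant member in HGC27 was miR-30c-5p, at 371 normalized tags (1078 counts) in the negative and 220 (609 counts) in the positive library. In AGS it had 51 (366 counts) and 10 (43 counts). By count it ranked 62, 67, 60 and 109 among the miRNAs of HGC27 negative, HGC27 positive, AGS negative and AGS positive. Its level was lower with the positive probe in each line, and both HGC27 libraries were above both AGS libraries on this scale.

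The leading member in AGS was miR-30d-5p, with 81 normalized tags (582 counts) in the negative and 20 (87 counts) in the positive library. In HGC27 it had 222 (646 counts) and 75 (207 counts). It stood second to miR-30c-5p in HGC27 and above it in AGS, where it was the 51st and 89th ranked miRNA by count.

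The remaining members were lower. In HGC27 negative, HGC27 positive, AGS negative and AGS positive, miR-30b-5p had 62, 17, 21 and 3 normalized tags (180, 47, 152 and 13 counts). Its level in AGS positive rested on few counts, and with either probe HGC27 was the higher line on this scale.
In the same order miR-30a-5p had 45, 28, 6 and 10 normalized tags (130, 78, 40 and 42 counts). In AGS it was the only member above its negative library in the positive one, although its counts there were nearly equal, at 42 and 40, in libraries of different size. The least abundant member in every library was miR-30e-5p, with 18, 8, 3 and 1 normalized tags (51, 21, 19 and 4 counts).

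The order of the levels was miR-30c-5p, miR-30d-5p, miR-30b-5p, miR-30a-5p and miR-30e-5p in HGC27 negative, with neighbouring counting intervals that did not overlap. In HGC27 positive the order of miR-30a-5p (22.3 to 35.2 normalized tags) and miR-30b-5p (12.5 to 22.6) was exchanged, and their intervals overlapped. In AGS positive, miR-30a-5p (7.08 to 13.3) and miR-30c-5p (7.28 to 13.6) could not be told apart at this depth. The plot of member levels shows these orders side by side.

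**Figure D1:**
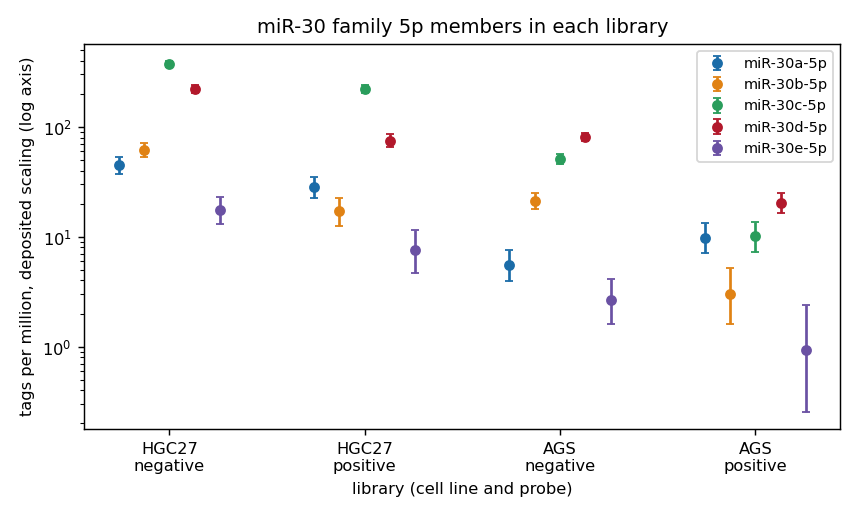
Level of each of the 5 members in the 4 libraries, in tags per 1000000 on the deposited scaling before rounding (log axis). Points are single libraries and bars are exact 95% Poisson intervals of the count (counting error only); miR-30c-5p leads in both HGC27 libraries (371 and 220) and miR-30d-5p in both AGS libraries (81 and 20).

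Family composition was compared as the share of each member among the summed counts of the 5 members, a measure that does not depend on how libraries are scaled to each other. In HGC27, miR-30c-5p made up 51.7% of the family (95% CI 49.6 to 53.8) with the negative probe and 63.3% (60.2 to 66.3) with the positive probe. In AGS its shares were 31.6% (29.0 to 34.3) and 22.8% (17.4 to 29.2). The shares of miR-30c-5p in the HGC27 libraries were thus above those in the AGS libraries, beyond counting error, with either probe. Between the probes its share moved up in HGC27 and down in AGS.

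The share of miR-30d-5p was 31.0% (29.0 to 33.0) in HGC27 negative and 21.5% (19.0 to 24.2) in HGC27 positive. In AGS it was 50.2% (47.3 to 53.1) and 46.0% (39.1 to 53.2), so that the intervals of the lines did not overlap, whereas those of the AGS probes did. The share of miR-30a-5p was 6.24% (5.28 to 7.36) and 8.11% (6.55 to 10.0) in HGC27. In AGS it was 3.45% (2.55 to 4.67) with the negative probe and 22.2% (16.9 to 28.7) with the positive probe. This was the largest move of any member between the probes of a line.

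The share of miR-30b-5p was lower with the positive probe in both lines, at 8.63% (7.50 to 9.92) and 4.89% (3.69 to 6.44) in HGC27 and 13.1% (11.3 to 15.2) and 6.88% (4.06 to 11.4) in AGS. The intervals overlapped narrowly in AGS. The share of miR-30e-5p lay between 1.64% and 2.45% in all 4 libraries, with overlapping intervals.

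Reads of miR-30a-5p, miR-30d-5p and miR-30e-5p may be exchanged by a counter, since these members differ at 1 or 2 bases. Summed to 1 entry they made up 39.7% (37.6 to 41.8) and 31.8% (28.9 to 34.8) of the family in HGC27, and 55.3% (52.4 to 58.2) and 70.4% (63.5 to 76.4) in AGS, negative and positive in turn. The other group, miR-30b-5p and miR-30c-5p, therefore held most of the family in HGC27 (60.3% and 68.2%) and less in AGS (44.7% and 29.6%). The difference in composition between the lines was present in this coarser grouping with both probes.

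**Figure D2:**
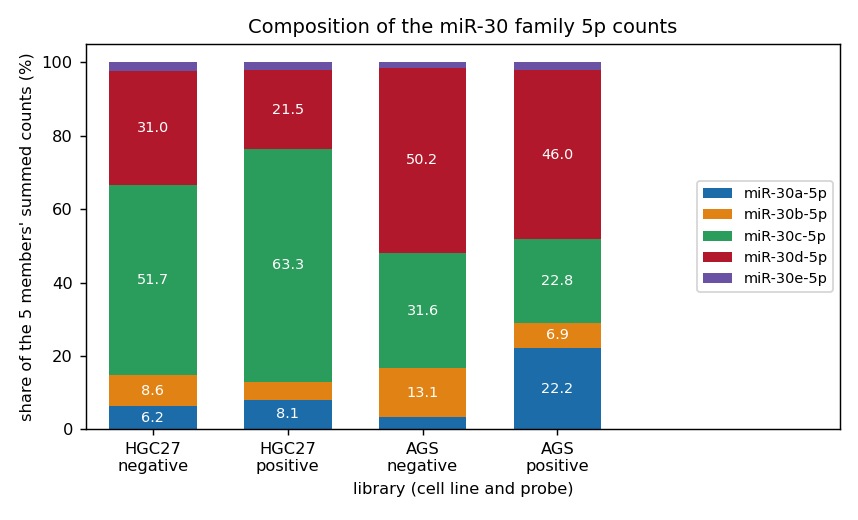
Stacked bars give the share of each member (%) in the summed counts of the 5 members, with 1 bar per library (2085, 962, 1159 and 189 counts from left to right); shares above 5% are printed. The miR-30c-5p part is largest in the HGC27 bars and the miR-30d-5p part in the AGS bars, and miR-30a-5p widens from 3.45% to 22.2% between the AGS bars.

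The probe comparison asked whether the members were recovered more with one probe than with the other. The ratio of a miRNA was its normalized value + 1 in the positive library over that in the negative library, a ratio of at least 2 being called enriched and one of at most 0.5 depleted. In HGC27 the summed family had a ratio of 0.485 (log2 -1.04), and all 5 members were below 1. The ratio was at most 0.5 for 3 of the 5 members, miR-30b-5p, miR-30d-5p and miR-30e-5p, against 34% of the 755 miRNAs listed in either library. None was enriched (0 of 5), against 37.5% of listed miRNAs. Among the 366 miRNAs that reached 10 counts in either library, 33.3% were depleted, and their median log2 ratio was -0.12 against -1.08 for the members.

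In HGC27 the fold from the counts was lowest for miR-30b-5p, at 0.275 (95% CI 0.195 to 0.381). It was 0.337 (0.287 to 0.395) for miR-30d-5p and 0.433 (0.247 to 0.733) for miR-30e-5p. The folds of miR-30c-5p, 0.594 (0.537 to 0.657), and of miR-30a-5p, 0.631 (0.470 to 0.842), were closer to 1 and did not pass the ratio of 0.5. The intervals of miR-30b-5p and miR-30d-5p did not overlap that of miR-30c-5p.

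In AGS the summed family had a ratio of 0.276 (log2 -1.86). The ratio was at most 0.5 for 4 of the 5 members, against 22.7% of the 459 miRNAs listed in either AGS library, and none was enriched (0 of 5), against 39.4%. Of the 230 that reached 10 counts in either library, 31.3% were depleted, with a median log2 ratio of 0.42 over all 230 and of -1.97 for the members. The 1 member that was not depleted was miR-30a-5p.

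The AGS folds from the counts were 0.144 (95% CI 0.0748 to 0.253) for miR-30b-5p, 0.197 (0.140 to 0.271) for miR-30c-5p and 0.251 (0.198 to 0.315) for miR-30d-5p. Their intervals overlapped. For miR-30e-5p the fold was 0.354 (0.0875 to 1.06), from 19 and 4 counts, and its ratio of 0.5 was exactly at the threshold. Before rounding of the normalized tags its log2 ratio was -0.91, so that it was not depleted on that scaling. The fold of miR-30a-5p was 1.76 (1.12 to 2.79), and its interval did not overlap that of miR-30d-5p or of miR-30e-5p, from which it differs by 1 base each. When miR-372-3p was excluded from the library totals, the log2 ratio of miR-30a-5p in AGS was -0.67 instead of 0.65, and that of the family -3.36, so the direction of miR-30a-5p in AGS depended on the scaling. The share of miR-372-3p in the AGS counts and the epithelial marker sum in both lines were also lower with the positive probe, and their part in these ratios was not tested.

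**Figure D3:**
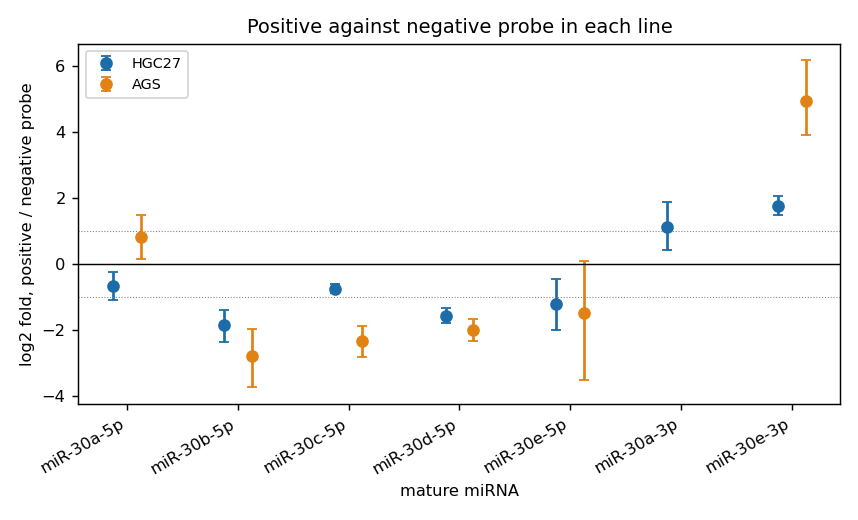
Log2 fold of the positive over the negative probe from the counts and the deposited scaling, for the 5 members and for the 3p arms miR-30a-3p and miR-30e-3p, in HGC27 and AGS (1 library per group). Bars are exact 95% intervals of counting error and dotted lines mark log2 folds of -1 and 1; miR-30a-3p has no AGS point because its count with the negative probe was 0.

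**Figure D4:**
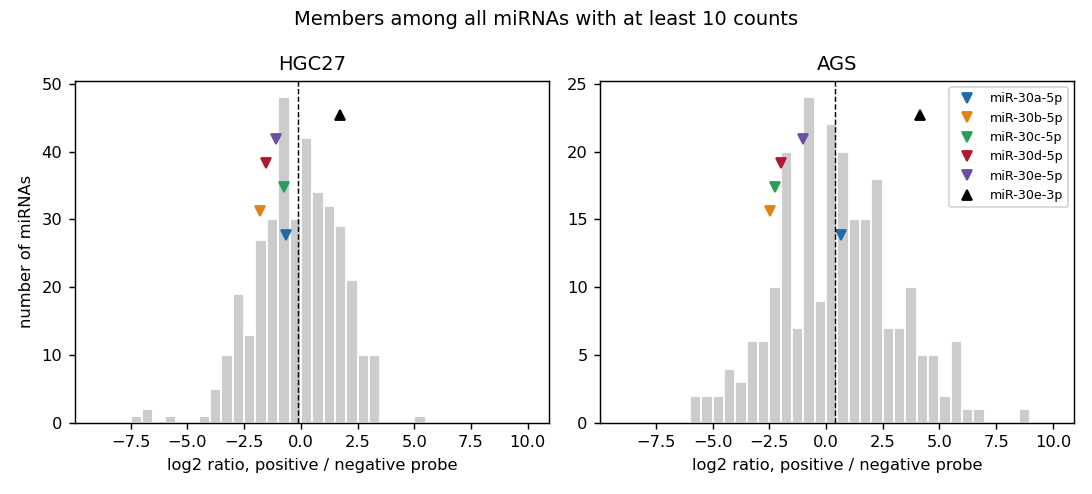
Histograms of the log2 ratio (positive over negative probe) of the miRNAs that reached 10 counts in either library, 366 in HGC27 and 230 in AGS, with the dashed line at their median (-0.12 and 0.42). The coloured triangles give the 5 members and the black triangle miR-30e-3p at their own log2 ratios (their height carries no value, and the vertical scales differ), with all members left of the median in HGC27 and 4 of 5 in AGS.

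To set more than 1 library against another for each probe, both lines were fitted together, with the line as a covariate, in edgeR (quasi-likelihood test, Benjamini-Hochberg adjustment over the 271 miRNAs that passed the filter on low counts). All 5 members passed the filter. The lines stood in for replicates and left 1 residual degree of freedom. The fit took its spread wholly from what the miRNAs tested share, which may vary with abundance (common biological coefficient of variation 0.612). A p-value therefore does not rest on the member's own spread. Each SE of an edgeR estimate is its absolute value over the square root of the test's F statistic. In this fit 0 of 5 members were called at an adjusted p under 0.05, against 7.01% of the miRNAs tested (19 of 271). At an unadjusted p under 0.05 the number was 1 of 5, against 20.3%. The DESeq2 Wald test called 0 of 5 at an adjusted p under 0.05, against 49 of the 271 miRNAs. It gave no adjusted p for 32 of the 271, which could not be called. At an unadjusted p under 0.05 it had 2 of 5 members, against 68 of the 271.

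The member with the smallest p was miR-30b-5p, for which edgeR estimated -2.69 ± 1.17 on the log2 scale (SE; Benjamini-Hochberg adjusted p = 0.124). The values were -2.18 ± 1.16 for miR-30d-5p, -1.93 ± 1.22 for miR-30c-5p, -1.65 ± 1.05 for miR-30e-5p and -0.33 ± 1.05 for miR-30a-5p. Their adjusted p-values in edgeR ranged from 0.275 to 0.890. The estimates of all 5 members were negative, beside a median of -0.16 over the miRNAs tested, and none was called after the Benjamini-Hochberg adjustment. With other library scalings the estimate for miR-30a-5p was slightly above 0, at 0.072 to 0.21.

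The line comparison set HGC27 against AGS with each probe. With the negative probe the ratio of HGC27 to AGS was at least 2 for 5 of the 5 members, against 86% of the 615 miRNAs listed. With the positive probe it was also at least 2 for 5 of the 5, against 75.3% of 684. The summed family had a ratio of 4.41 (log2 2.14) with the negative and of 7.76 (log2 2.96) with the positive probe. Most miRNAs thus had higher normalized values in HGC27, with a median log2 ratio of 2.81 and 2.58 over those that reached 10 counts in either library, of which 85.8% and 74.7% had a ratio of at least 2. The members' medians of 2.25 and 2.17 were below these medians.

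Among the members, the ratio of HGC27 to AGS with the negative probe was 7.15 for miR-30c-5p, 6.57 for miR-30a-5p, 4.75 for miR-30e-5p, 2.86 for miR-30b-5p and 2.72 for miR-30d-5p. With the positive probe it was 20.1 for miR-30c-5p, and 2.64 to 4.50 for the other members. The fold of miR-30c-5p from the counts was 21.9 (95% CI 16.1 to 30.6) with the positive probe, and the next highest, that of miR-30e-5p, was 8.12 (2.74 to 32.5).

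The direction of the line comparison depended on the scaling. With the negative probe the family log2 ratio was -0.51 when miR-372-3p was excluded from the totals, -0.88 with TMM and -0.95 with DESeq2 size factors. With the positive probe it was 1.91, 0.72 and 0.41. Over both probes, edgeR with TMM gave log2 fold changes of HGC27 over AGS of 0.76 ± 1.20 (SE) for miR-30c-5p and -0.10 ± 1.07 for miR-30e-5p, and of -0.61 ± 1.05, -0.92 ± 1.14 and -1.22 ± 1.14 for miR-30a-5p, miR-30b-5p and miR-30d-5p. In edgeR 0 of 5 members were called with Benjamini-Hochberg adjustment (adjusted p 0.467 to 0.936), against 29.9% of the miRNAs tested, and 0 of 5 at an unadjusted p under 0.05, against 39.1%. DESeq2 called 0 of 5 as well, against 62 of the 271 miRNAs tested, and gave no adjusted p for 21 of the 271. Scaled by library totals only, miR-30c-5p was called in edgeR (adjusted p = 0.00947, log2 fold change 3.31). It was the 1 member called, against 169 of the 271 miRNAs tested. Their median log2 fold change was 3.17, close to that of miR-30c-5p. The composition of the family given above does not depend on these scalings.

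The 3p arms of the same hairpins were listed as 6 entries. Their summed counts were 164 in HGC27 negative, 501 in HGC27 positive, 8 in AGS negative and 148 in AGS positive. Of all counts from both arms, the 3p arms made up 7.29% (95% CI 6.29 to 8.44), 34.2% (31.9 to 36.7), 0.686% (0.348 to 1.35) and 43.9% (38.7 to 49.3), respectively. The 3p share was thus higher with the positive probe in both lines, whereas the summed 5p members were lower.

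Most of these counts were miR-30e-3p, which had 130, 419, 8 and 144 counts (45, 152, 1 and 34 normalized tags) in HGC27 negative, HGC27 positive, AGS negative and AGS positive. Its fold with the positive probe was 3.39 (95% CI 2.78 to 4.16) in HGC27 and 30.2 (14.9 to 71.4) in AGS. Its log2 ratio in AGS was 3.33 when miR-372-3p was excluded from the totals and 4.04 to 4.68 under the other library scalings tested, and 2.00 with a pseudocount of 10. In HGC27 it was 1.56 to 1.92 under these settings. On the deposited scaling its log2 ratio of 1.73 in HGC27 was above those of 85.5% of the miRNAs that reached 10 counts in either library. In AGS its log2 ratio was 4.13. It reached 10 counts there only with the positive probe (8 and 144 counts), so its rank in AGS is not read. In edgeR over both lines it had an estimate of 2.85 ± 1.17 on the log2 scale (SE; Benjamini-Hochberg adjusted p = 0.0998) and it was not called. It was called with DESeq2 size factors in edgeR (adjusted p = 0.0497) and by DESeq2 itself (adjusted p = 0.0178), and the adjusted p was 0.137 to 0.652 under the other settings tested.

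The second 3p arm was miR-30a-3p, with 26, 54, 0 and 4 counts in the same order of libraries. Its fold in HGC27 was 2.18 (95% CI 1.34 to 3.63), and in AGS its counts were too few for a ratio to be read. Over both lines edgeR estimated 1.81 ± 1.14 on the log2 scale (SE; Benjamini-Hochberg adjusted p = 0.351). The other 3p arms had at most 16 counts in any library: miR-30c-2-3p had 5 and 16 in HGC27, miR-30c-1-3p had 0 and 10, miR-30b-3p had 3 and 0, miR-30d-3p had 0 and 2, and none of them was listed in AGS.

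Within a single hairpin the scaling of the libraries cancels. In the mir-30e hairpin the 3p arm made up 71.8% (95% CI 64.9 to 77.9) of both arms in HGC27 negative and 95.2% (92.8 to 96.9) in HGC27 positive. In AGS it rose in counts from 8 of 27 to 144 of 148, or from 29.6% (15.9 to 48.5) to 97.3% (93.3 to 98.9). Thus miR-30e was the only one of these hairpins with more 3p than 5p counts, in 3 of the 4 libraries.

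In the mir-30a hairpin, whose arms each differ from those of mir-30e by 1 base, the 3p arm made up 16.7% (11.6 to 23.3) and 40.9% (32.9 to 49.4) in HGC27. In AGS it made up 0 of 40 counts with the negative probe and 8.70% (3.43 to 20.3) with the positive probe. The rise in HGC27 was of 24.2 percentage points for mir-30a and 23.4 for mir-30e. Of 87 hairpins with both arms in the table and at least 20 counts in each HGC27 library, 6 and 7 rose further, and the median change was 0 points (quartiles -2.06 to 1.29). In AGS the rise of 67.7 points for mir-30e was exceeded by 1 of 63 hairpins. The other miR-30 hairpins changed by -1.64 to 2.10 points. Where a mature miRNA has several hairpins its counts were used for each, so the miR-30c hairpins share their 5p counts.

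**Figure D5:**
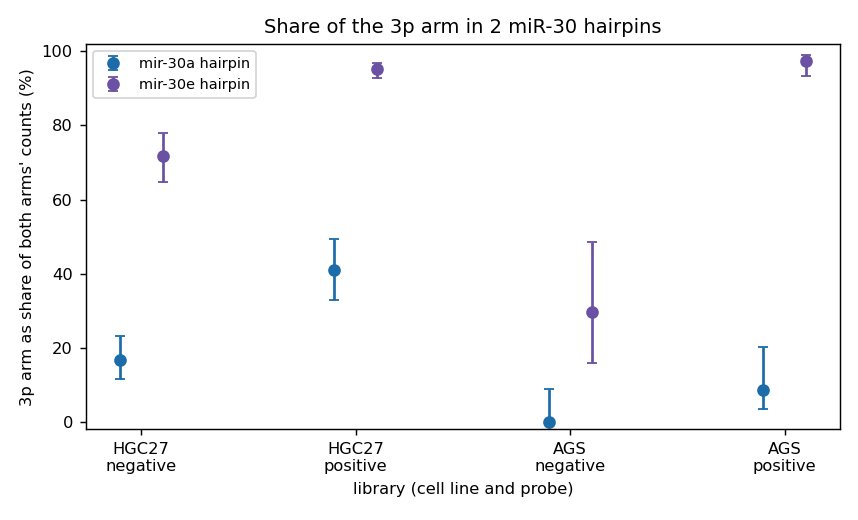
Share of the 3p arm (%) in the summed counts of both arms of the mir-30a and mir-30e hairpins, in each of the 4 libraries, with Wilson 95% intervals (counting error only). In both lines the share is higher with the positive probe, although the intervals of mir-30a overlap in AGS. The mir-30e hairpin reaches 95.2% and 97.3% with the positive probe.

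The members were compared with each other by their pattern, that is log2(normalized value + 1) centred on its own mean over the 4 libraries. The Euclidean distance was smallest between miR-30b-5p and miR-30d-5p (0.44), which differ at 8 of 22 bases. It was largest between miR-30a-5p and miR-30c-5p (2.55), which differ at 5 of 22 bases. Between miR-30a-5p and its near-identical relatives miR-30d-5p and miR-30e-5p the distance was 2.00 and 1.21. The distance between miR-30d-5p and miR-30e-5p was 0.94.

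Of 185 other known miRNAs with at least 100 counts in all, miR-26a-5p had the pattern nearest to the summed family, at a distance of 0.43 beside a median of 3.08. It had 3668, 2371, 960 and 205 normalized tags in HGC27 negative, HGC27 positive, AGS negative and AGS positive, so it was lower with the positive probe in both lines. Next came miR-181b-5p (0.52), let-7d-3p (0.74), miR-941 (0.77) and miR-182-5p (0.82), all of which also had lower values in both positive than in the matching negative libraries. The shared direction is largely set by the choice of these miRNAs for their likeness to the family in the same 4 libraries. With 1 library per group, this likeness is a description of these libraries.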

How the data were processed

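Small RNA from RNA pull-down material was sequenced by the authors in 4 libraries, 1 per cell line and probe. Cutadapt 1.9.3 and Novoalign 3.02.12 are named in the submitters' processing notes; the miRNA database release is not given in the sources used here. The authors deposited raw counts per mature miRNA and precursor (901 rows), which were collapsed to 843 names (570 known and 273 predicted), a blank being taken as 0. A second deposited table gives a score, the tags per 1000000 as whole numbers, whose recovered divisors exceed the table totals (35.7% to 50.0% of them) for a reason that is not stated. The ratios had been planned on unrounded tags per 1000000.

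Ratios used the score with a pseudocount of 1 and carry no test within a line. Counts were fitted in edgeR 4.0.16 (R 4.3.3; TMM, filterByExpr, line and probe as terms), with DESeq2 1.42.0 as an alternative. The prior degrees of freedom were infinite (common biological coefficient of variation 0.612). The model was tested on counts simulated with 8-fold probe changes and no difference between the lines. At a coefficient of variation of 0.6, 48 of 84 changed entries tested were called, and 2 unchanged ones. At 0.1, 111 of 112 were called, and 6 unchanged ones. At the spread near that of these data, many 8-fold changes were thus missed. Intervals are at 95%. The text names the members, the 3p arms of their hairpins, the leading miRNA of each line, markers, and the 5 known miRNAs nearest to the family in pattern. Alternatives covered scaling, pseudocount, thresholds, filter, covariate, summed members and left-out libraries. The members and lists were chosen with earlier results of these data known.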

Additional observations from a re-analysis of the deposited data

Results flagged for a closer look

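The probe ratio of miR-30a-5p differed in direction between the lines, since the log2 ratio of positive over negative probe was -0.67 for HGC27 but 0.65 for AGS. The values lie 1.32 apart. This difference was not tested, since each line had 1 library per probe. It rests on 130 and 78 counts in HGC27 and on 40 and 42 in AGS. Once miR-372-3p was excluded from the totals the AGS value was -0.67, whereas the HGC27 value above is on the deposited scaling.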

How the results depend on the processing

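Each choice was changed in turn, and the cause of the shifts below was not tested. Member counts at another threshold, scaling or pseudocount are given without the share of all miRNAs past the same ratio. They show how the member counts move with the setting and are not read against other miRNAs. For the family log2 ratio between the probes, DESeq2 size factors gave -0.86 in HGC27 and -2.22 in AGS, TMM gave -2.58 in AGS, and leaving miR-372-3p out of the totals gave -3.36 in AGS and -0.67 for miR-30a-5p. With a ratio threshold of 4, 0 members were depleted in HGC27 and 2 in AGS, and with a threshold of 1.5, 5 were depleted in HGC27 and 1 (miR-30a-5p) was enriched in AGS.

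Between the lines with the negative probe, the family log2 ratio was 1.87 on table totals, -0.51 without miR-372-3p, -0.88 with TMM and -0.95 with DESeq2 size factors. Under each of the last 3 settings 2 members were at a ratio of at most 0.5 and 0 at one of at least 2. On the deposited scaling 3 members passed a threshold of 4. Without miR-372-3p miR-30b-5p was at -1.11 and miR-30d-5p at -1.20. With TMM and DESeq2 size factors the log2 ratios were -0.030 and -0.095 for miR-30a-5p, -1.47 and -1.54 for miR-30b-5p, -0.17 and -0.24 for miR-30c-5p, -1.58 and -1.64 for miR-30d-5p, and -0.29 and -0.35 for miR-30e-5p.

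With the positive probe the family log2 ratio was 2.57 on table totals, 1.91 without miR-372-3p, 0.72 with TMM, 0.41 with DESeq2 size factors and 2.73 with a pseudocount of 10. The members at a ratio of at least 2 then numbered 3 without miR-372-3p, 1 with TMM, 1 with DESeq2 size factors, 3 with the pseudocount of 10 and 3 at a threshold of 4, and 1 was at most 0.5 with DESeq2 size factors. TMM and DESeq2 size factors gave -0.71 and -1.01 for miR-30a-5p, -0.37 and -0.67 for miR-30d-5p and -0.082 and -0.39 for miR-30e-3p, and DESeq2 size factors gave -0.074 for miR-30b-5p. Summing miR-30a-5p, miR-30d-5p and miR-30e-5p gave a largest share of 55.3% in AGS negative and 70.4% in AGS positive.

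In edgeR the probe calls over all miRNAs were 19, and were 32 with DESeq2 size factors, 0 when scaled by library totals, 0 unfiltered, 1 with the 5 members summed, 0 without a covariate and 49 with the DESeq2 Wald test. The log2 fold change of miR-30a-5p was 0.072 with DESeq2 size factors, 0.21 with library totals and 0.077 with DESeq2. The line calls were 81, and were 169 with library totals, where 1 member was called, and 0 with no filter. Library totals gave line log2 fold changes of 1.93, 1.66, 1.33 and 2.51 for miR-30a-5p, miR-30b-5p, miR-30d-5p and miR-30e-5p. The median over the miRNAs tested was 3.17 under that setting. No filter gave 0.16 for miR-30e-5p. Without the negative probe libraries miR-30b-5p was at 0.18, miR-30e-5p at 0.62 and miR-30e-3p at -0.12, and without the positive probe libraries miR-30c-5p was at -0.60.

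No paired analysis was possible because the labels carry no replicate numbers, beyond the pairing by line that the edgeR fit of the probe already holds as its covariate. Adding other entries that hold the first 18 bases of a member gave no value, since 0 entries do. The unrounded scaling, an alternative chosen after seeing the data, put miR-30e-5p in AGS at a log2 ratio of -0.91, so that 3 members were depleted there, and left the other member counts of the probe and line ratios as they were. A pseudocount of 10 also left 3 depleted members in AGS, and 2 in HGC27, as did DESeq2 size factors in HGC27. Depth limited miR-30e-5p in AGS positive (4 counts) and the lesser 3p arms most.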
